A study of Mus musculus with 6 samples.

Results

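Thick ascending limb (TAL) cells of the mouse kidney were taken as all cells that the deposited annotation places in its TAL class, 4122 of 22154 cells (18.6%). They came from 6 libraries. Vehicle libraries 1, 3 and 5 held 961, 823 and 840 TAL cells, and furosemide libraries 2, 4 and 6 held 356, 696 and 446. All samples came from wild-type C57BL/6J mice aged 16 weeks on a gel diet with a constant 104 µmol sodium per kcal. The furosemide group received 70 mg/kg body weight of the drug daily with this diet for 1 week, and the vehicle group received the diet with vehicle for 1 week. The study addressed how segments of the nephron adapt to the diuretic. Kidneys were dispersed mechanically and with collagenase, and the counts are those of the cells recovered. BD Rhapsody beads, which barcode the messenger RNA of each cell, captured the RNA of single cells for libraries of the whole-transcriptome and targeted kinds. The deposited counts cover a panel of 456 genes. A level is given as CPM, a gene's counts per 1000000 counts of that panel and not of the whole transcriptome.

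The TAL takes up sodium, potassium and chloride from the tubular fluid through the apical cotransporter NKCC2, encoded by Slc12a1, and is impermeable to water. Potassium recycles through the apical channel encoded by Kcnj1, and the basolateral sodium pump drains the cell. The resulting voltage drives calcium and magnesium between the cells, through pores formed with claudin-16, while claudin-10 forms sodium pores, and these claudins are known to mark different TAL cells. Furosemide blocks NKCC2. At its distal end the TAL contains the macula densa, a small plaque of cells that senses salt through NKCC2 and signals to the renin-producing cells.

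The 5 marker genes were all highest in the TAL class. Slc12a1 held 9.28% of all TAL counts and stood 181-fold above its level in the next highest class. Cldn16 stood 95.2-fold above the next class and Cldn10 3.96-fold. Umod, which encodes uromodulin, the main protein of normal urine, held 21.5% of TAL counts, and Egf, the precursor of epidermal growth factor, held 13.6%. The next class for Umod and Egf was the distal convoluted tubule (DCT), at 50.5% of the TAL level for Umod and 43.1% for Egf. Slc5a1, a sodium-glucose cotransporter, was also highest in TAL, 8.97-fold above the next class, a proximal one. Casr, the calcium-sensing receptor, stood 2.75-fold above the next class, and Ptger3, a prostaglandin E receptor, 2.3-fold. These levels describe the class and were not tested, since the cells were grouped on the same counts.

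Library totals over all cells ranged from 4819988 to 7635509 counts. The median TAL cell held 1398, 1764 and 1328 counts in vehicle libraries 1, 3 and 5, against 1481, 1598 and 1497 counts with furosemide (libraries 2, 4 and 6), so that depth overlapped between treatments. Single TAL cells ranged from 373 to 6410 counts. In the authors' annotation the TAL class came from a joint cluster of 6022 cells from which 1900 cells were assigned to DCT, and a second clustering named 4119 of the 4122 cells TAL as well. A cell barcode present in more than 1 library was found 196 times over all cells, and 77 TAL cells carried such a barcode.

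TAL cells were scarcer in every furosemide library. They made up 23.5, 24.8 and 22.8% of the cells of the vehicle libraries and 11.7, 15.7 and 12.4% of those of the furosemide libraries, with no overlap. The means were 23.7% ± 1.01 and 13.3% ± 2.13 (SD, n = 3), a log2 ratio of -0.84 (two-sided exact permutation p = 0.1, a design that cannot give a smaller p). Among cells outside the proximal classes, the TAL share was 41.3, 42.0 and 44.4% with vehicle and 22.5, 26.7 and 28.3% with furosemide, a log2 ratio of -0.72. The authors brought the cell number to the same size in both treatments, and a share of recovered cells does not tell the number of cells in the kidney from their survival in dissociation.

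**Figure D1:**
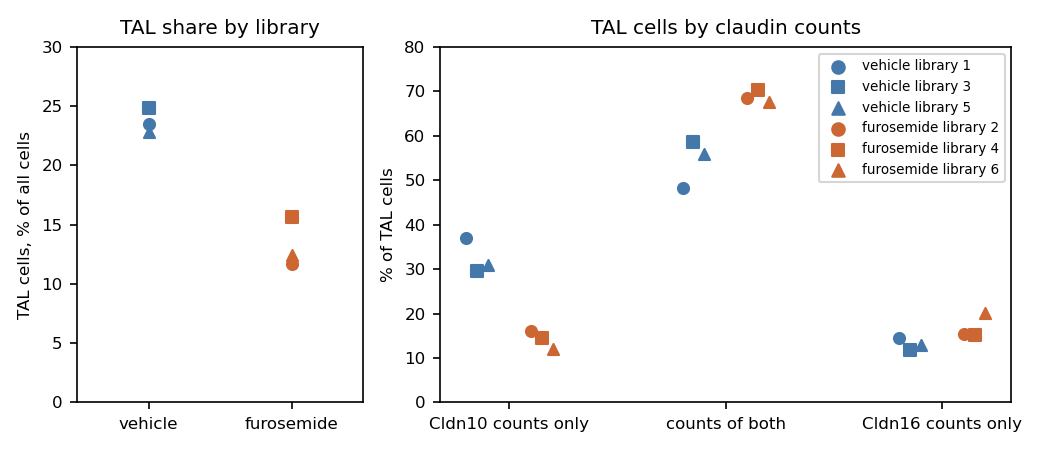
Share of TAL cells among all cells (left, % per library) and share of TAL cells that held counts of Cldn10 alone, of both claudins or of Cldn16 alone (right, % of TAL cells), with 1 point per library. The furosemide libraries sit below all vehicle libraries in the TAL share (11.7 to 15.7% against 22.8 to 24.8%) and in the share of cells with Cldn10 alone (12.1 to 16.0% against 29.6 to 37.0%).

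Within TAL cells, counts were summed per library and tested with edgeR's quasi-likelihood test, and a gene was called at an adjusted p under 0.05 over the 317 genes tested. The called genes were 15 of 317 (4.73%), with 5 higher with furosemide (1.58%) and 10 lower (3.15%). The libraries of both treatments did not overlap for 75 of the 317 genes (23.7%), 40 higher and 35 lower, and the 15 called genes were among them. The median log2 change over all tested genes was 0.00 under TMM scaling, the trimmed-mean scaling of edgeR, which centres most genes near 0 by its construction. With scaling by library size alone the median was -0.11, and changes are given relative to the TMM centre. Counts of called genes within the gene lists are to be read against the shares over all tested genes. The number of calls depended on single libraries: it was 7 without vehicle library 1, 3 without vehicle library 3, 8 without vehicle library 5, 3 without furosemide library 2, 4 without furosemide library 4 and 21 without furosemide library 6. Pappa2, Fxyd2 and Calb1 passed in each of these 6 fits. Adora2b, Gpx6 and Myc passed in none of them, Nr0b2, Pdgfb and Ptgds in 1, Cldn16 and Wfdc2 in 2, and Ccnd1, G6pc and Lpl in 3, and none of the 15 changed sign. With the same number of TAL cells drawn from each library, Pappa2 (edgeR, adjusted p = 0.0501) and Calb1 (adjusted p = 0.0927) did not pass. DESeq2 called 32 genes, 16 in each direction, among them all 15. Many genes lay close to the threshold: leaving out the 3 TAL cells that the second clustering named otherwise gave 20 calls, 10 in each direction. Nothing in the labels says that the replicates are separate animals, so the p-values measure only the spread between these libraries.

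**Figure D2:**
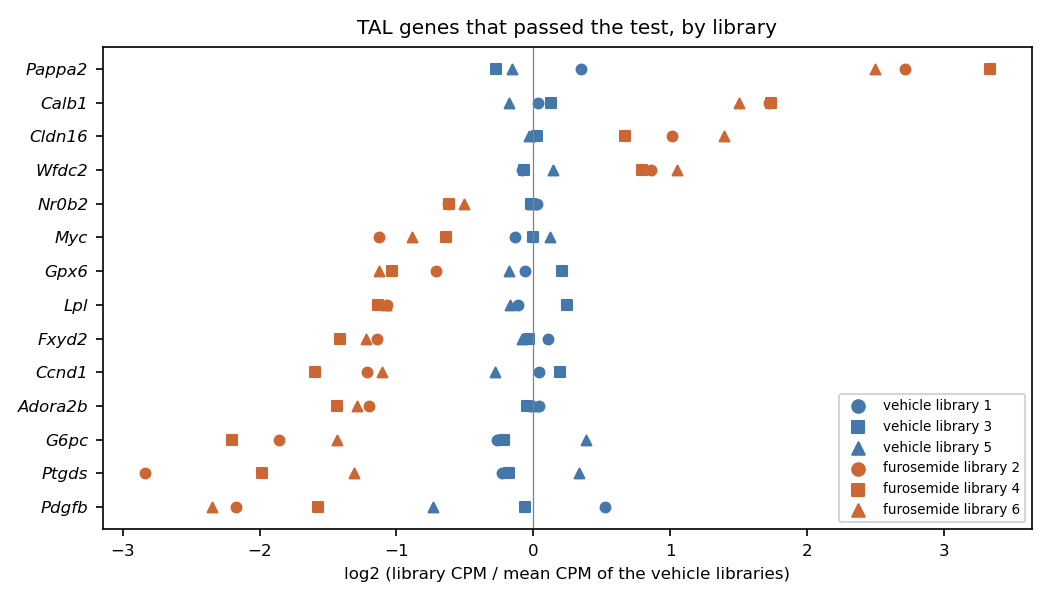
Level of 14 of the 15 called genes in each library, as log2 of its CPM over the mean of the vehicle libraries, with blue points for vehicle and orange for furosemide. Orange and blue points do not overlap for any of these genes, and Pappa2 lies farthest to the right and Pdgfb and Ptgds farthest to the left.

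The genes of salt transport did not move together. Slc12a1, the target of the drug, stood at 83894, 98244 and 83505 CPM in vehicle libraries 1, 3 and 5 and at 96734, 87081 and 113146 CPM in furosemide libraries 2, 4 and 6, with overlap (log2 change 0.16 ± 0.16 SE, adjusted p = 0.653). The CPM are those of the summed TAL cells over all panel genes after TMM scaling. None of the 3 tested genes listed for apical entry and potassium recycling passed (median log2 change 0.27, 3 of 3 above 0), among them Kcnj1 (log2 change 0.30 ± 0.15 SE, adjusted p = 0.41). The list also holds Slc4a4, a basolateral bicarbonate cotransporter that belongs to neither process. In plain CPM, without TMM scaling, Slc4a4 was at 39.6 in TAL and 6673 in its highest class, a proximal one.

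Fxyd2, the gamma subunit that tunes the sodium pump, fell. Its levels were 1935, 1755 and 1701 CPM in the vehicle libraries and 813, 676 and 771 CPM in the furosemide libraries (log2 change -1.26 ± 0.13 SE, adjusted p = 0.0061). All furosemide libraries lay far below the vehicle libraries, and the spread within each treatment was small. Atp1b1, the beta subunit of the pump, was at 42034, 53321 and 43701 CPM with vehicle and 50782, 43378 and 53995 CPM with furosemide, with overlap (log2 change 0.09 ± 0.16 SE, adjusted p = 0.791). Kcnj16, a basolateral potassium channel subunit, was at 3091, 3873 and 3007 CPM and 6635, 5553 and 4968 CPM, apart in all libraries and just outside the threshold (log2 change 0.78 ± 0.18 SE, adjusted p = 0.0572).

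None of 7 tested kinases and regulators of the cotransporters was called (median log2 change 0.00, 4 of 7 above 0). Wnk1, a kinase that acts upstream of NKCC2, was at 2762, 2764 and 2664 CPM with vehicle and 4438, 3293 and 7733 CPM with furosemide, apart in all libraries but wide among the furosemide libraries (log2 change 0.92 ± 0.31 SE, adjusted p = 0.178). Wnk4 overlapped (log2 change -0.03 ± 0.23 SE, adjusted p = 0.949), as did Ppp1r1a, an inhibitor of protein phosphatase 1 (log2 change 0.05 ± 0.19 SE, adjusted p = 0.895).

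Cldn16, the divalent cation claudin, rose and Cldn10 did not pass. Cldn16 stood at 3037, 3089 and 2960.3 CPM in the vehicle libraries and 6119.6, 4831 and 7958 CPM in the furosemide libraries (log2 change 1.06 ± 0.20 SE, adjusted p = 0.0426). The vehicle libraries were nearly level, and furosemide library 4 was the lowest of the furosemide libraries. Cldn10 was at 17046, 19529 and 19912 CPM and 16432, 14253 and 19324 CPM, with overlap (log2 change -0.18 ± 0.17 SE, adjusted p = 0.642). Of the 4 tested genes of the paracellular route and calcium sensing, Cldn16 was the 1 called (median log2 change -0.27, 1 of 4 above 0). Casr was lower in all furosemide libraries, 483, 442 and 360.2 CPM against 552, 577 and 518 CPM, and did not pass (log2 change -0.36 ± 0.14 SE, adjusted p = 0.253). In thinned cells, 50.5, 53.9 and 54.3% of TAL cells held a Cldn16 count with vehicle and 73.6, 69.1 and 81.4% with furosemide, against 0.62% and 0.326% of proximal cells under vehicle and furosemide (exact permutation p = 0.1, adjusted p = 0.119 over 19 genes). Thinning cut each cell to 500 counts and left out 20 vehicle and 7 furosemide TAL cells with fewer counts.

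Calb1, which encodes the calcium-binding protein calbindin-D28k of the distal tubule, was called at low counts, and its share of TAL cells was close to that in proximal cells. It stood at 39.5, 42.2 and 34.2 CPM with vehicle and 128, 129 and 109 CPM with furosemide (log2 change 1.66 ± 0.19 SE, adjusted p = 0.00701). In thinned cells 1.79, 2.07 and 1.45% of TAL cells of the vehicle libraries and 5.06, 5.04 and 5% of those of the furosemide libraries held a count. Of proximal cells, which are not known for the gene, 2.18% and 4.99% did, at a median of 1179 and 1236 counts per cell. In unthinned cells the mean share was 4.6% and 11.7% in TAL and 4.41% and 10.7% in proximal cells. Proximal cells thus held Calb1 counts about as often as TAL cells under each treatment. A change of expression in TAL and counts from other cells cannot be told apart here, and the part of such counts was not tested. Calb1 was the 1 called gene of 4 tested genes of transcellular calcium and magnesium handling (median log2 change 0.62, 4 of 4 above 0). S100g, encoding calbindin-D9k, overlapped (log2 change 0.27 ± 0.17 SE, adjusted p = 0.513), as did Kl, which encodes klotho (log2 change 0.75 ± 0.30 SE, adjusted p = 0.26).

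For the claudin that rose, the protease described below and the most abundant gene, the RefSeq sequence of the 250 bases before the start of the gene is shown (build GRCm38.p6, 5′ to 3′ on the gene's strand), to give the regulatory sequence beside its expression. The build behind the deposited counts is not stated. The windows are chr16:26462885-26463134 (plus strand) for Cldn16, chr1:158958176-158958425 (minus strand) for Pappa2 and chr7:119479263-119479512 (minus strand) for Umod. Capitals mark the hexamer GTTAAT, the core of the binding motif of the transcription factor HNF1, searched on both strands (ATTAAC on the other).
Cldn16: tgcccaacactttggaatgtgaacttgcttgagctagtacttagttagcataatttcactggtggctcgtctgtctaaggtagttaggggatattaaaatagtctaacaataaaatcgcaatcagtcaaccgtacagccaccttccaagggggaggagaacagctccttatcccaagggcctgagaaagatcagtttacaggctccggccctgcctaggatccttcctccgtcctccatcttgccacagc
Pappa2: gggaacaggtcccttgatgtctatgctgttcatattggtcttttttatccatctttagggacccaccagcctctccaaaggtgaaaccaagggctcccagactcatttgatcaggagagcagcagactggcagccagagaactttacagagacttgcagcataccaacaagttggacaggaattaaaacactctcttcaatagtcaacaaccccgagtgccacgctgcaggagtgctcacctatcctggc
Umod: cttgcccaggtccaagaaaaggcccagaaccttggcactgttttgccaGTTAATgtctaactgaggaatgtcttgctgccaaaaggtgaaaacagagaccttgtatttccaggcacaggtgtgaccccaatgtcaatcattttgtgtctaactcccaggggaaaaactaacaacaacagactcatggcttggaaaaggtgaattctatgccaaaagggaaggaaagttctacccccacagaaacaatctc
The hexamer was found in the Umod window, with its first base 202 bases before the start. It is present in 6.43% of all 32851 such windows in the RefSeq table. Of 19 TAL genes looked up, 12 had a window there, and Cldn10, G6pc and Umod held the hexamer. A match of these letters is not a binding site, and no binding was measured.

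Among the genes listed as secreted proteins of the TAL, Wfdc2 rose and Ptgds fell, while Umod and Egf were not called (median log2 change 0.46, 7 of 8 above 0). The 8 include Ptger3, which encodes a receptor and not a secreted protein. Wfdc2, which encodes a secreted protein with protease-inhibitor-like domains, stood at 10911, 11022 and 12777 CPM in vehicle libraries 1, 3 and 5 and 20999, 20069.6 and 24013 CPM in furosemide libraries 2, 4 and 6 (log2 change 0.91 ± 0.15 SE, adjusted p = 0.0265). The lowest furosemide library was above the highest vehicle library by more than the spread within either treatment. Ptgds, a prostaglandin D2 synthase, fell from 483, 501 and 715 CPM to 79.3, 144 and 228 CPM (log2 change -1.91 ± 0.38 SE, adjusted p = 0.0426). In thinned cells 22.1, 19.8 and 26.1% of TAL cells held a Ptgds count with vehicle and 3.09, 6.33 and 6.59% with furosemide, so fewer cells carried it in each furosemide library, against 1.31% and 1.16% of proximal cells.

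Umod was at 168104, 230142 and 221558 CPM with vehicle and 248768, 212853 and 220063 CPM with furosemide, with the lowest value in vehicle library 1 (log2 change 0.14 ± 0.17 SE, adjusted p = 0.701). Egf was at 110460.3, 132268 and 128245 CPM and 179246, 129765 and 174249.5 CPM, where furosemide library 4 lay among the vehicle libraries (log2 change 0.38 ± 0.17 SE, adjusted p = 0.34). Spp1, which encodes osteopontin, was at 34360.5, 33496 and 31190.4 CPM and 35858, 57884 and 50984 CPM, higher in all furosemide libraries but by little in library 2, and was not called (log2 change 0.55 ± 0.20 SE, adjusted p = 0.208).

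Pappa2 had the greatest fold change among the called genes, and it came from a small set of cells. Pappa2 encodes a protease that cleaves binding proteins of insulin-like growth factors (IGF) and is known from the macula densa. It stood at 37.7, 24.6 and 26.6 CPM in the vehicle libraries and 195, 299 and 167 CPM in the furosemide libraries (log2 change 2.89 ± 0.30 SE, adjusted p = 0.0061). Vehicle libraries 1, 3 and 5 held 13, 10 and 9 TAL cells with a Pappa2 count, which is 1.35, 1.22 and 1.07% of their TAL cells. Furosemide libraries 2, 4 and 6 held 11, 23 and 17 such cells, or 3.09, 3.3 and 3.81%. The shares did not overlap (exact permutation p = 0.1). As a share of all cells of the library they were 0.318, 0.302 and 0.245% and 0.361, 0.518 and 0.474%, again without overlap (exact permutation p = 0.1). In proximal cells a Pappa2 count was found in 1 of 4898 vehicle cells and 1 of 5316 furosemide cells.

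With cells of at least 1 Pappa2 count and no thinning, Pappa2 cells of the furosemide libraries also held more Pappa2 counts on average. The libraries overlapped in this measure at a cut of 3 counts and in thinned cells. The mean was 4.85, 3.9 and 3.89 counts per such cell with vehicle and 9.82, 17.0 and 6.47 with furosemide, where library 4 was the highest. The median total of these cells was 1035, 1510.5 and 918 counts and 1556, 1386 and 1056 counts, which overlap. Cells with 3 or more Pappa2 counts numbered 8, 5 and 2 and 8, 21 and 14. Their means were 7.25, 6.6 and 12 Pappa2 counts with vehicle and 13.1, 18.6 and 7.57 with furosemide. In cells thinned to 500 counts the share with a Pappa2 count was 1.05, 0.972 and 0.603% and 2.25, 3.17 and 3.18%. The mean per such thinned cell was 3.7, 2 and 1 counts with vehicle and 4.5, 5.91 and 3.57 with furosemide.

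The cells with a Pappa2 count numbered 32 with vehicle and 51 with furosemide. They differed from other TAL cells in Ptgs2, a gene known from the macula densa, and in other genes. This is given as a description of cells chosen by Pappa2. In plain CPM, without TMM scaling, Ptgs2, which encodes cyclooxygenase-2, was at 3392 against 27.5 CPM (Pappa2 cells against other TAL cells) with vehicle and 2719 against 28 CPM with furosemide. A Ptgs2 count was present in 27 of 32 vehicle and 39 of 51 furosemide Pappa2 cells, against 34 of 2592 and 22 of 1447 other TAL cells. Krt18, a keratin, was at 2441 against 322 CPM with vehicle and 3336 against 171 CPM with furosemide. Sfrp1, a secreted inhibitor of Wnt signalling, was at 30961 against 3743 CPM and 35325 against 5534 CPM in the same order. With both treatments pooled, ratios of Pappa2 cells to other TAL cells were highest for Ptgs2 (108), Napsa (19.7), Krt18 (11.2) and Timp2 (9.84). Hspa1a (8.69), H2-Aa (8.48) and Sfrp1 (7.65) followed. Cyr61, also listed as a macula densa marker, was not higher, at 2772 against 3029 CPM (ratio 0.915). Umod, Egf and Ccnd1 were lower in Pappa2 cells under each treatment. Umod was at 89167 against 213919 CPM with vehicle and 46146 against 223323 CPM with furosemide, and Egf at 71645 against 128304 CPM and 43525 against 152387 CPM. Ccnd1 was at 259 against 2419.9 CPM and 322 against 886 CPM. Slc12a1 was at 84068 CPM in Pappa2 cells and 92136 CPM in other TAL cells with vehicle, and 95083 and 94155 CPM with furosemide. A cut at 1 count gives a range of Pappa2 levels and not a separate cell type.

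**Figure D3:**
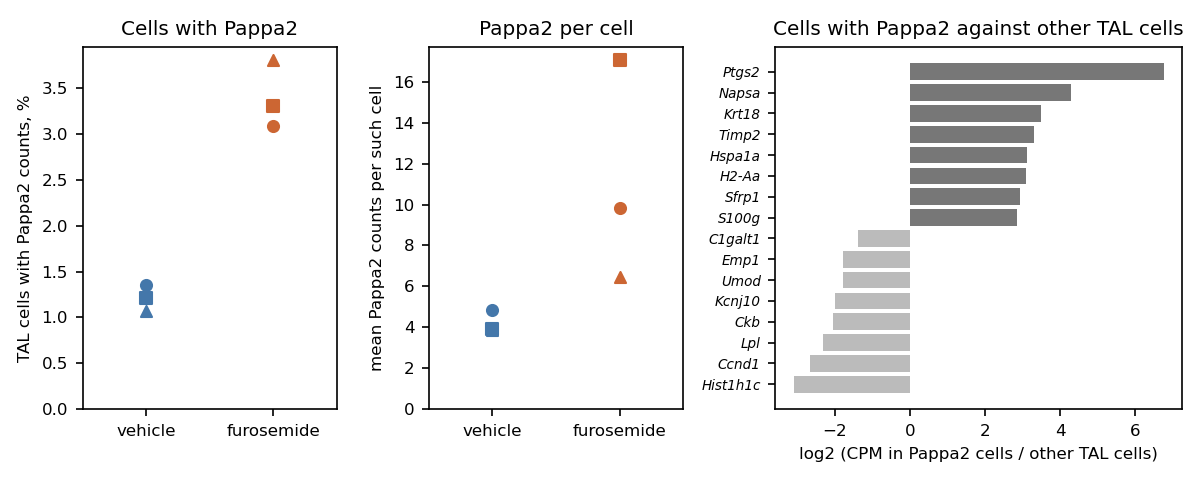
Share of TAL cells with a Pappa2 count (left, %), mean Pappa2 counts in such cells (middle) and the 8 genes with the highest and the 8 with the lowest ratio of plain CPM between Pappa2 cells and other TAL cells, among the genes reported here and with both treatments pooled (right, log2), with 1 point per library in the left and middle panels. All furosemide libraries lie above all vehicle libraries in both measures, taken in unthinned cells with at least 1 count, and Ptgs2 has the highest ratio.

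Pappa2 was the 1 called gene of 3 tested macula densa markers (median log2 change 0.68, 2 of 3 above 0). Over all TAL cells Ptgs2 was at 73.1, 35.3 and 75.3 CPM with vehicle and 84.7, 125 and 82.1 CPM with furosemide, apart but not called (log2 change 0.68 ± 0.34 SE, adjusted p = 0.41). Cyr61, a secreted matrix protein that is also listed there, was at 4485, 3353 and 2614 CPM and 1361, 2059 and 2146 CPM, lower in all furosemide libraries and not called (log2 change -0.91 ± 0.26 SE, adjusted p = 0.114). Of 12 tested genes of the IGF axis, Pappa2 was the 1 called (median log2 change -0.21, 4 of 12 above 0). The list was written knowing earlier results on IGF genes in these samples. Igf1r, the receptor, was at 199, 255 and 268 CPM and 250.5, 219 and 217 CPM in TAL (log2 change -0.07 ± 0.16 SE, adjusted p = 0.829).

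Ccnd1 and Myc, which act in growth control, fell with furosemide. Ccnd1, which encodes cyclin D1, an early driver of the cell cycle, fell from 2357, 2617 and 1885 CPM in vehicle libraries 1, 3 and 5 to 987, 757 and 1061 CPM in furosemide libraries 2, 4 and 6 (log2 change -1.29 ± 0.19 SE, adjusted p = 0.0177). Myc, the growth-promoting transcription factor, fell from 179, 197 and 214 CPM to 90.1, 126 and 106 CPM (log2 change -0.86 ± 0.17 SE, adjusted p = 0.0426). For each, the highest furosemide library was below the lowest vehicle library. In thinned cells the mean share of TAL cells with a Ccnd1 count was 60.1% with vehicle and 34.2% with furosemide. In proximal cells it was also lower with furosemide, at 36.0% and 24.1%. For Myc the shares were 7.53% and 3.51% in TAL and 9.50% and 8.99% in proximal cells. They were the called members among 7 tested genes of cell cycle and growth control, against 3.15% called lower over all tested genes (median log2 change -0.16, 2 of 7 above 0).

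Birc5, which encodes survivin, a protein of dividing cells, was near the limit of detection. Its summed TAL counts were 4, 2 and 6 with vehicle and 8, 16 and 14 with furosemide, and it did not pass (log2 change 2.51 ± 0.56 SE, adjusted p = 0.0553). The cell-cycle inhibitors Cdkn1a (log2 change -0.24 ± 0.43 SE, adjusted p = 0.795) and Cdkn1b (log2 change -0.16 ± 0.19 SE, adjusted p = 0.695) overlapped.

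Of 10 tested growth factors and receptors, Pdgfb fell and none rose (median log2 change -0.33, 3 of 10 above 0). Pdgfb, a subunit of platelet-derived growth factor, was at 479, 320.3 and 201 CPM in the vehicle libraries and 73.9, 112 and 65.4 CPM in the furosemide libraries (log2 change -1.97 ± 0.37 SE, adjusted p = 0.0426). The vehicle libraries spread more than the furosemide libraries, with no overlap. In thinned cells 16.6, 11.9 and 9.29% of TAL cells held a Pdgfb count with vehicle and 2.25, 2.73 and 2.73% with furosemide, while in proximal cells the shares were 12.7% and 9.58%. Vegfa, vascular endothelial growth factor A, was at 1243, 2100.3 and 1395 CPM and 849, 781 and 968 CPM, apart but not called (log2 change -0.87 ± 0.22 SE, adjusted p = 0.0811).

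Genes of fuel and redox metabolism held 4 called members of 15 tested, all lower with furosemide, against 3.15% called lower over all tested genes (median log2 change -0.29, 5 of 15 above 0). Lpl, lipoprotein lipase, which frees fatty acids from circulating lipoproteins, fell from 3731, 4786 and 3585 CPM to 1928, 1837 and 1918 CPM (log2 change -1.09 ± 0.16 SE, adjusted p = 0.0177). Gpx6, a glutathione peroxidase, fell from 9029.6, 10889 and 8314 CPM to 5761, 4608 and 4310.4 CPM (log2 change -0.94 ± 0.18 SE, adjusted p = 0.0426). For both, every furosemide library was below every vehicle library, and for Lpl the furosemide libraries were nearly level.

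Nr0b2, a nuclear receptor that represses metabolic genes, fell by less, from 450.4, 437 and 439.5 CPM to 287, 289 and 312 CPM, with a very small spread within each treatment (log2 change -0.58 ± 0.10 SE, adjusted p = 0.0358). G6pc, which encodes glucose-6-phosphatase, the last enzyme of gluconeogenesis, fell from 449, 465 and 708 CPM to 149.6, 118 and 201 CPM (log2 change -1.80 ± 0.27 SE, adjusted p = 0.0177). G6pc is a proximal tubule gene, and in TAL it stood at 2.28% of its highest proximal level. The median of the 20 proximal markers in TAL was 0.374% of their proximal level. Without G6pc itself and Slc5a1, which was highest in TAL, the other 18 markers summed to 3799, 3247 and 3954 CPM in vehicle libraries 1, 3 and 5, against 3338, 3228 and 3579.5 CPM with furosemide (libraries 2, 4 and 6), with overlap.

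Adora2b, an adenosine receptor, was the called member of 5 tested receptors for hormones, prostaglandins and adenosine (median log2 change 0.02, 3 of 5 above 0). It fell from 38.3, 35.9 and 37.3 CPM to 16.2, 13.8 and 15.2 CPM (log2 change -1.31 ± 0.28 SE, adjusted p = 0.0486), on 64, 57 and 49 summed counts with vehicle and 9, 18 and 10 with furosemide. Ptger3 was at 3654, 4232 and 3577 CPM and 2616, 2691 and 7669 CPM, where furosemide library 6 alone was above the vehicle libraries (log2 change 0.18 ± 0.44 SE, adjusted p = 0.849). Nr3c2, the mineralocorticoid receptor, overlapped (log2 change 0.18 ± 0.13 SE, adjusted p = 0.551).

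Immediate early and stress genes and injury genes gave no calls in TAL. Of 10 tested immediate early, heat shock and stress genes none was called, and 9 of them had a log2 change below 0 (median log2 change -0.27, 1 of 10 above 0). Fos, a transcription factor induced rapidly by stimulation and known to rise in dissociation, was at 43362, 44124 and 36060.0 CPM with vehicle and 26765, 39414 and 41149 CPM with furosemide (log2 change -0.20 ± 0.20 SE, adjusted p = 0.653). Of 12 tested tubular injury genes none was called (median log2 change 0.15, 8 of 12 above 0). Thbs1, thrombospondin 1, came nearest, at 692, 812 and 681 CPM and 1151, 1008 and 1281 CPM, apart in all libraries (log2 change 0.65 ± 0.14 SE, adjusted p = 0.0553). Clu, which encodes clusterin, was at 1451, 757 and 931 CPM and 1564, 4583 and 1120.2 CPM, with its highest value in furosemide library 4 (log2 change 1.21 ± 0.56 SE, adjusted p = 0.355).

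TAL cells were also divided by their claudin counts, a grouping chosen after results of these data were known and given here as a description. Cells with Cldn10 counts and no Cldn16 counts made up 37.0, 29.6 and 31.0% of TAL cells in vehicle libraries 1, 3 and 5, against 16.0, 14.5 and 12.1% with furosemide (libraries 2, 4 and 6). Cells with counts of both made up 48.3, 58.6 and 55.8% and 68.5, 70.3 and 67.7%, and cells with Cldn16 alone 14.5, 11.8 and 12.9% and 15.4, 15.1 and 20.2%. Each furosemide library had fewer cells with Cldn10 alone than any vehicle library. With cells thinned to 500 counts, the shares with Cldn10 alone were 47.8, 45.2 and 44.4% and 25.8, 30.5 and 18.6%. A group set by the lack of a count thus depends on depth, and the groups differed in it. The median cell with Cldn10 alone held 1244, 1425.5 and 1084 counts with vehicle and 1345, 1586 and 1326.5 with furosemide. With both claudins it held 1582.5, 1976.5 and 1514 counts with vehicle and 1555, 1627 and 1569 with furosemide. A Cldn10 count was also present in 73.8% and 69.4% of thinned proximal cells under vehicle and furosemide, so that a Cldn10 count alone does not set TAL cells apart from proximal cells. In plain CPM, Cldn16 was higher with furosemide in cells with both claudins, at 4955 to 6966 against 3487 to 4151 CPM. With Cldn16 alone it was at 10548 to 12712 against 6515 to 7064 CPM. Since Cldn16 itself rose, a cell can leave the group with Cldn10 alone through a Cldn16 count, and a change in the kinds of cells and a change within cells cannot be told apart from these shares.

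With vehicle, the groups differed widely in several genes called in TAL as a whole. In plain CPM, cells with Cldn10 alone held 5269 to 5488 CPM of Fxyd2 over the vehicle libraries, against 597 to 729 in cells with both claudins and 269 to 405 in cells with Cldn16 alone. Wfdc2 ran the other way, in the same order of groups at 2889.7 to 4824, 12605 to 15504 and 16608 to 19998 CPM. Cells with Cldn10 alone were thus the highest in Fxyd2 and the lowest in Wfdc2. Adora2b, also called lower in TAL, was on few counts highest with both claudins, at 39.9 to 68.5 CPM with vehicle. With Cldn10 alone it was at 8.2 to 29.5 CPM. In cells with both claudins it was at 17.2 to 21.4 CPM with furosemide. The part of the group shares in the TAL changes was not tested. Ptgds was at 1242 to 2235 CPM with Cldn10 alone and 37.1 to 71.5 CPM with Cldn16 alone, and G6pc at 1207 to 2339.9 and 93.5 to 106 CPM. Ptger3 was at 5125 to 6657 and 371 to 529.8 CPM, and Casr at 379.6 to 426 and 864 to 896 CPM.

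Within the groups, furosemide libraries differed from vehicle libraries for some of these genes and not for others. Fxyd2 was lower with furosemide in cells with Cldn10 alone, at 1229 to 3028 CPM. It overlapped with vehicle in cells with both claudins (435 to 657 CPM) and in cells with Cldn16 alone (249 to 595 CPM). Umod was higher with Cldn10 alone, at 207235 to 314429 against 127702 to 170943 CPM, and lower with Cldn16 alone, at 149310.0 to 174514 against 203801 to 236047 CPM. In cells with both claudins, the largest group, Umod overlapped, at 203715 to 234735 against 207521 to 259557 CPM. Whether the treatment effect differed between the groups was not tested.

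Lpl, Ccnd1 and Gpx6 were below all vehicle libraries in each group. Apart from Umod, the genes followed within the groups were called on the same counts, so these differences are not separate support. In cells with both claudins, Lpl was at 1756 to 1944 CPM with furosemide against 3225 to 4269 CPM with vehicle. Ccnd1 was there at 755 to 942 against 1874 to 2410 CPM, and Gpx6 at 3854 to 5550 against 8212 to 10351 CPM. Lpl was at 2228 to 3293 against 6198 to 6953 CPM with Cldn10 alone and at 758 to 994 against 1746 to 2672 CPM with Cldn16 alone. Ccnd1 was at 1347 to 1809 against 2628 to 3623 and at 438 to 558 against 1291 to 1703 CPM. Gpx6 was at 7298 to 8969 against 13078 to 14531 and at 904 to 1529 against 3268 to 5302 CPM. Wfdc2 was above all vehicle libraries in each group, with 9022 to 10413 CPM with Cldn10 alone and 24599 to 28376 CPM with Cldn16 alone. Nr0b2 was also lower in each group, for example at 309 to 313 against 362 to 479.8 CPM in cells with both claudins. Pdgfb and Ptgds were lower with Cldn10 alone and with both claudins and overlapped with Cldn16 alone.

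G6pc was lower in each group as well, while other proximal genes were not in all of them. In cells with both claudins G6pc was at 95.5 to 136 CPM with furosemide and 154 to 257 CPM with vehicle, where the sum of 18 other proximal markers was 3360.5 to 3748 and 3064 to 3882 CPM, with overlap. In cells with Cldn10 alone G6pc was at 372 to 677 and 1207 to 2339.9 CPM, and the 18 other markers at 2499.8 to 3245 and 4014 to 4503 CPM, also lower. The 18 exclude Slc5a1, which was highest in TAL.

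**Figure D4:**
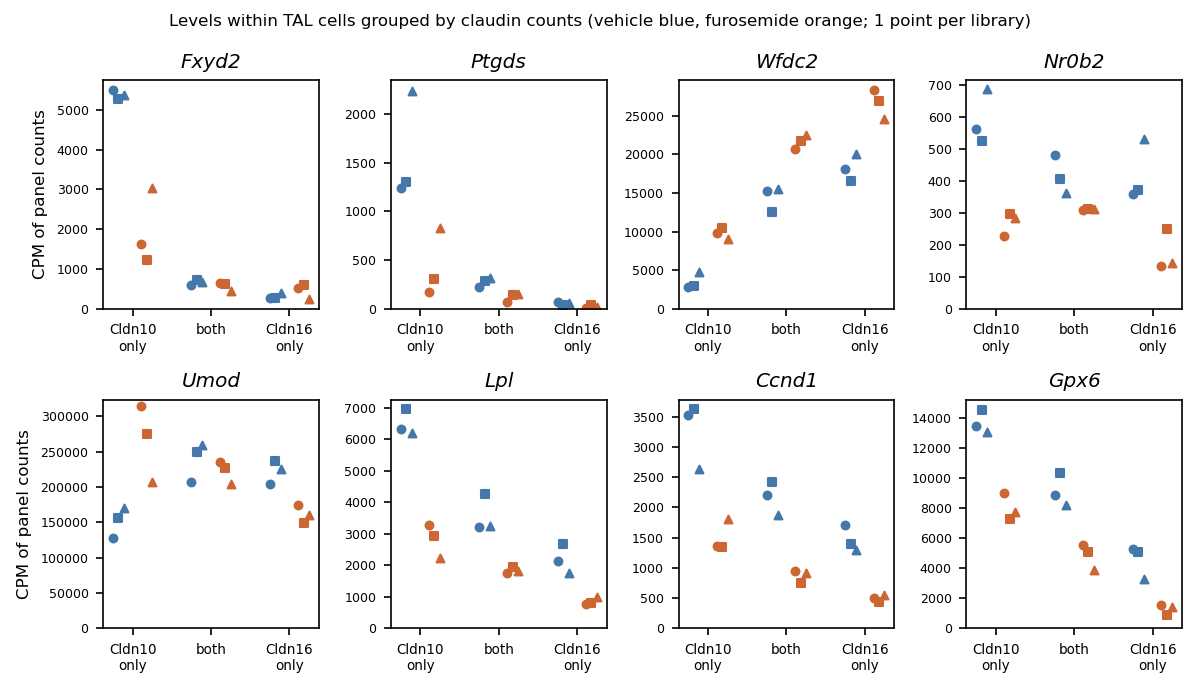
Plain CPM of 8 genes in TAL cells with Cldn10 counts alone, with both claudins and with Cldn16 counts alone, 1 point per library, vehicle in blue and furosemide in orange, each vertical axis from 0. Fxyd2 and Ptgds are high with Cldn10 alone and lower there with furosemide, while Lpl, Ccnd1, Gpx6 and Nr0b2 are lower and Wfdc2 is higher with furosemide in all 3 groups. All but Umod were called in TAL on the same counts.

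The effect in TAL was compared with that in the DCT, the next segment downstream and the class split from the same cluster, and in the connecting tubule (CNT), with the library as a block and the interaction of class and treatment as the test. The effect differed between TAL and DCT for 30 of 311 genes (9.65%), with 15 more positive and 15 more negative in TAL. Without vehicle library 1 the number was 17. The smallest p belonged to Tfrc, the transferrin receptor, which brings iron into cells. In DCT it was at 3212, 4029 and 2221 CPM with vehicle and 6669.5, 6863 and 9789.5 CPM with furosemide, higher in each furosemide library. In TAL it was at 734, 808 and 418 CPM and 362, 343 and 508 CPM, which overlapped. The effect in TAL minus that in DCT was -1.91 ± 0.13 SE, adjusted p = 2.61e-05.

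Several genes called in TAL differed from DCT. Fxyd2 was at 4068, 4503 and 3928 CPM with vehicle and 5059, 4627 and 6205 CPM with furosemide in DCT, against its fall in TAL (difference -1.52 ± 0.15 SE, adjusted p = 0.000249). Lpl (difference -1.43 ± 0.20 SE, adjusted p = 0.00213), Ccnd1 (-1.28 ± 0.17 SE, adjusted p = 0.00196) and Gpx6 (-1.58 ± 0.21 SE, adjusted p = 0.00196) were each more negative in TAL, as were G6pc (-2.01 ± 0.28 SE, adjusted p = 0.00213) and Pdgfb (-1.25 ± 0.26 SE, adjusted p = 0.0157), while Wfdc2 was more positive (0.75 ± 0.16 SE, adjusted p = 0.0161). None of these 7 genes passed the test within DCT alone.

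Genes not called in TAL also differed. Thbs1 was at 1495, 1436 and 1339.5 CPM with vehicle and 828, 643 and 891 CPM with furosemide in DCT, lower there and higher in TAL (difference 1.59 ± 0.15 SE, adjusted p = 0.000249). Atp4a, the catalytic subunit of the gastric-type proton pump, was more positive in TAL (1.36 ± 0.19 SE, adjusted p = 0.00213), as were Kcnj16 (1.01 ± 0.15 SE, adjusted p = 0.0022) and Timp3, an inhibitor of matrix proteases (0.84 ± 0.13 SE, adjusted p = 0.00332). Slc12a1 differed as well (1.44 ± 0.23 SE, adjusted p = 0.00333), but in DCT it was at only 306, 486 and 333 and 129.7, 186 and 160.4 CPM, far below its TAL level. The class with the highest Slc12a1 level after TAL held 512 CPM, and TAL cells were scarcer in the furosemide libraries. The part of counts from TAL cells in the DCT value was not tested.

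Against CNT the effect differed for 1 of 322 genes (0.311%), again Tfrc (-2.59 ± 0.36 SE, adjusted p = 0.0351), with 39 genes at an unadjusted p under 0.05. In CNT it was at 598, 599.7 and 317 CPM with vehicle and 1606, 2417 and 1324 CPM with furosemide. Without vehicle library 1, 3 or 5 or without furosemide library 2 no gene passed edgeR's test, with 35, 45, 40 and 27 genes at an unadjusted p under 0.05, and without furosemide library 6 there were 2. The TAL class entered both comparisons with the same sums.

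**Figure D5:**
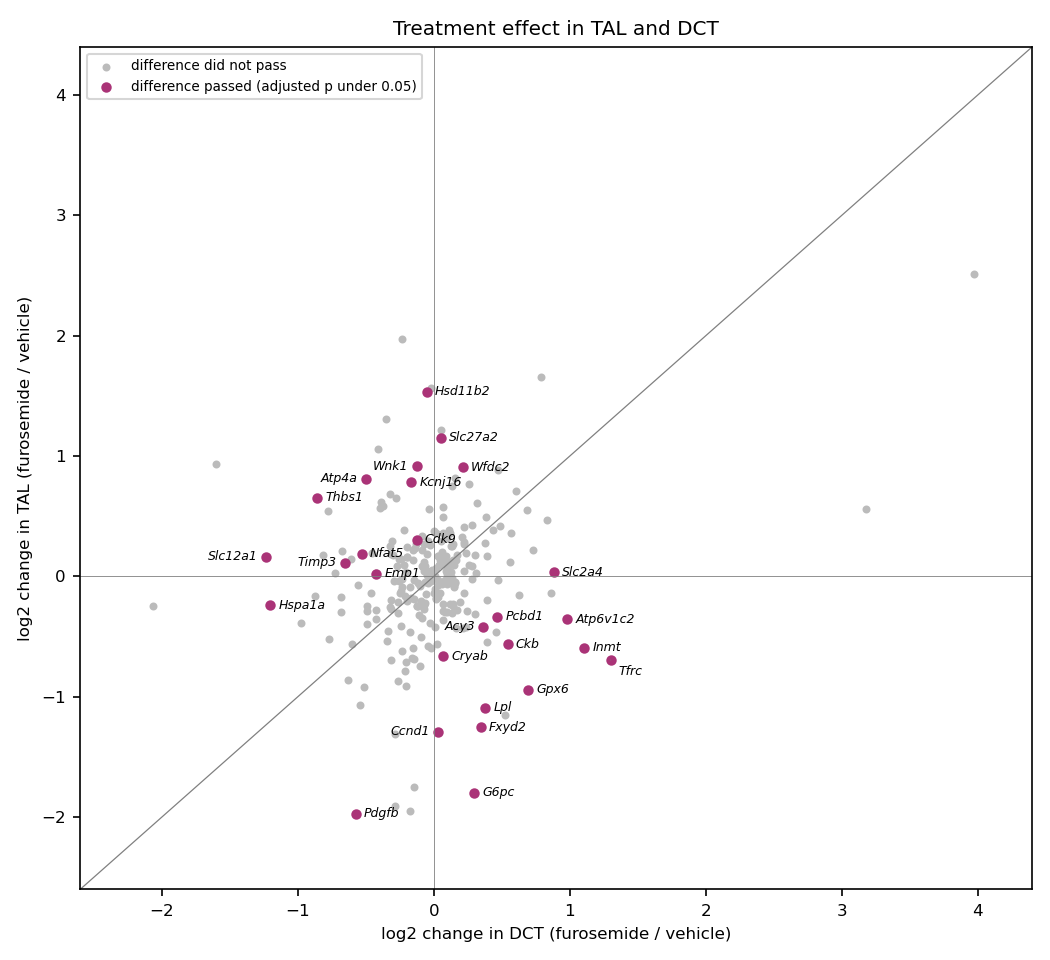
Log2 change with furosemide in DCT (horizontal) and in TAL (vertical) for the 267 genes drawn of those fitted in each class and in the comparison, with the diagonal marking equal change and the 27 genes whose difference passed in purple. Tfrc, Inmt and Atp6v1c2 lie to the right of 0 in DCT and below 0 in TAL, and Thbs1 and Slc12a1 lie to the left of 0 in DCT and above 0 in TAL.

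Markers of other cell types were summed in TAL cells, in plain CPM. DCT markers were at 182 to 239.6 CPM in vehicle libraries and 290.2 to 364 CPM in furosemide libraries, higher with furosemide, with Calb1 called among 3 tested and Pvalb at 0. Connecting tubule markers were at 1104 to 1122 CPM in vehicle libraries and 1155 to 1471 CPM in furosemide libraries, also higher. Calb1 is in this list as well, so these sums are not separate. Principal cell markers were at 96.1 to 153 CPM in vehicle libraries and 88.1 to 451 CPM in furosemide libraries, and immune markers at 30.4 to 111 CPM in vehicle libraries and 16.3 to 37.5 CPM in furosemide libraries. Podocyte and intercalated cell markers overlapped as well. Endothelial markers were at 14.2 to 36.9 CPM in vehicle libraries and 0 to 13.6 CPM in furosemide libraries, and those of stroma and juxtaglomerular cells at 35.3 to 239 CPM in vehicle libraries and 21.5 to 33.9 CPM in furosemide libraries, with Col3a1 at 0, and both sums were lower with furosemide. The part of these counts in the results was not tested.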

How the data were processed

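Counts per gene and cell for 456 genes were used as the authors deposited them, with the cell annotation. The file names record that doublets and a mixed cluster were removed and cell numbers equalised between treatments; no doublet caller was run here. Bowtie2 2.2.9 is named in the submitters' processing notes. The genome build, the counting and barcode correction steps, and the nature of a deposited count (molecule or read) are not given in the sources used here. TAL counts were summed per library (579061 to 1614134 counts) and tested with edgeR 4.0.16 (R 4.3.3) by TMM scaling, filterByExpr, robust glmQLFit and glmQLFTest, with Benjamini-Hochberg adjustment and a threshold of 0.05. The comparisons with DCT and CNT used a class by treatment interaction with the library as a block. For shares, all 20 assignments of libraries to treatments gave a two-sided exact permutation test. Cells were thinned to 500 counts with seed 20. The edgeR script was tested on simulated data. Alternatives used DESeq2 1.42.0 and limma 3.58.1. Libraries were grouped by the treatment recorded in the annotation and could not be joined to the replicate numbers. The members and gene lists were chosen with earlier results of these data known. Genes were named from the 5 markers, every called gene, the genes of highest TAL level and those of highest ratio to the next class. In each list the 3 members of highest level and the 2 with the smallest p were named. For each class comparison 5 genes of smallest p per direction were named. Others named (Atp6v1c2, Birc5, H2-Aa, Hspa1a, Igf1r, Inmt, Krt18, Napsa, Sfrp1, Timp2) were chosen after their values were seen. Some genes, 1 of the called genes among them, are counted but not reported here by name. Promoter windows came from RefSeq (GRCm38.p6).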

Additional observations from a re-analysis of the deposited data

Results flagged for a closer look

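The treatment effect in TAL differed from that in DCT, by the interaction test of edgeR, for 30 genes. The 12 given here are among those of smallest p or also called in TAL. The effect in TAL minus that in DCT was positive, on the log2 scale, for Thbs1 (1.59), Atp4a (1.36), Kcnj16 (1.01), Timp3 (0.84) and Wfdc2 (0.75). It was negative for G6pc (-2.01), Tfrc (-1.91), Gpx6 (-1.58), Fxyd2 (-1.52), Lpl (-1.43), Ccnd1 (-1.28) and Pdgfb (-1.25). Against CNT, Tfrc alone differed (-2.59), and that call was lost in 4 of the 6 fits that left out a library.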

How the results depend on the processing

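No paired analysis was possible because the deposited annotation does not join its libraries to the replicate numbers of the samples. The tests within TAL clusters were not run, since the second clustering places 4119 of 4122 TAL cells under 1 name. Against 15 called genes in TAL, DESeq2 gave 32 (16 higher and 16 lower with furosemide) and cells thinned to 500 counts gave 23, of which 11 were higher. The number higher was 11 without the cells of the highest 5% of totals, 10 in cells that the second clustering also named TAL and 3 with equal cell numbers. Leaving out 1 library gave 3 to 21 called genes, 2 to 10 of them higher and 1 to 11 lower. The cause was not tested. Fits within claudin groups and without Pappa2 cells, and the scaling by RLE size factors of the class comparisons, were chosen after seeing the data. Cells with Cldn10 and no Cldn16 gave 6 called genes, 1 of them lower. Cells with Cldn16 and no Cldn10 gave 6, with 0 higher and 6 lower (edgeR, 18 higher at an unadjusted p under 0.05). Cells with both claudins gave 0, with 0 higher and 0 lower (edgeR, 36 at an unadjusted p under 0.05, 12 higher and 24 lower). These fits rest on fewer cells, and since Cldn16 rose, the treatment also sets which cells fall in each group, so no call within a group is read as an effect. The log2 change of Umod, which was not called, was -0.020 without vehicle library 1 (up to 0.26 over the fits without 1 library), -0.42 with Cldn16 alone and -0.11 with both claudins. That of Fxyd2 was 0.55 with Cldn16 alone and that of Cldn10 was 0.070 with both claudins. Against DCT, leaving out 1 library gave 17 to 43 genes. Against CNT the number was 0 with library size alone (edgeR, 44 at an unadjusted p under 0.05) and 0 to 2 when 1 library was left out. The TAL share kept its direction in all its alternatives. Of 19 detection shares, 16 lay apart, with 16 to 18 over the alternatives. Since 15 of these 19 genes were chosen because they were called on the same counts, this number is not a separate result. With 3 libraries a treatment, a gene of few counts such as Adora2b or Birc5 has wide error, and differences near the threshold cannot be settled.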
